A study of Homo sapiens with 8 samples.

Results

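Short-term loss of ETS1 was examined in SCC25 cells, a tongue-derived line of head and neck squamous cell carcinoma (HNSCC) that is long established, after transfection with small interfering RNA (siRNA). The experiment held 4 of the 8 RNA sequencing libraries of the study, 2 named siRNA control and 2 named ETS1 siRNA. All 4 cultures were unmodified SCC25 cells grown in DMEM/F12 with serum and hydrocortisone and transfected with Lipofectamine RNAiMAX. The siRNA control cultures received non-targeting siRNAs, and the ETS1 siRNA cultures received a pool of 4 siRNAs against ETS1. The replicates were described as biological replicates of a single cell line, and neither the time after transfection nor the siRNA sequences are given in the sources used here. The other 4 libraries came from SCC25 cells with a stably expressed control hairpin (shCON) or a hairpin against ETS1 (shETS1), and they enter only where the kinds of knockdown are set side by side. All genes with enough reads to be tested in the siRNA libraries were taken, which gave 14742 of the 56638 gene symbols listed.

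ETS1 is the founding member of the ETS family of transcription factors, which bind DNA at sites with a GGAA core. It is phosphorylated by ERK kinases downstream of RAS, and this raises its activity as an activator of transcription. In carcinoma cells it is best known for the control of secreted proteases, growth factors and other genes of invasion, and in immune and epithelial cells for genes of cytokine signalling. An siRNA is loaded into the RNA-induced silencing complex and leads it to transcripts that pair with it. A microRNA such as let-7 pairs through a short stretch at its start, the seed. Sites for the let-7 seed lie mostly in the 3′ untranslated region (UTR).

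Total counts per library ranged from 15954616 to 20469763, and siRNA control replicate 1 and ETS1 siRNA replicate 2 were the deeper in their groups. The spread between replicates exceeded counting error, by a chi-square over its degrees of freedom of 13.3 for siRNA control and 23.2 for ETS1 siRNA. In a principal component analysis, the first component (49.2% of the variance) placed the deeper libraries, siRNA control replicate 1 and ETS1 siRNA replicate 2, on one side and the other two libraries on the other. The groups were separated by the second component, which held 39.2%, and the part of depth in the results was not tested. Keratinocyte identity genes were abundant in every library, with a summed level of 17600 to 22500 counts per 1000000 (CPM) in siRNA control and 25600 to 29500 CPM in ETS1 siRNA. None of these 12 genes was called by edgeR, 5 had an unadjusted p under 0.05, all higher, and DESeq2 called 5. PTPRC, CD3E and MS4A1 of the leukocyte markers, PECAM1 of the endothelial markers and TCF21 of the fibroblast markers had no counts in any library.

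A gene was called when its adjusted p in edgeR's quasi-likelihood test was under 0.1, and fold changes are log2 values of ETS1 siRNA over siRNA control. By this rule 502 genes were called, which is 3.41% of the genes tested. The falls outnumbered the rises, since 335 genes were called lower (2.27%) and 167 were called higher (1.13%). At an unadjusted p under 0.05, 1533 genes were lower (10.4%) and 1188 were higher (8.06%). The median log2 fold change was -0.79 among genes called lower and 0.73 among genes called higher, and 123 of the called genes changed at least 2-fold. The libraries of the groups did not overlap for any of the called genes, and this was also so for 51.9% of all genes tested. The number of calls rested on single libraries, with 72 calls without siRNA control replicate 1 and 1478 without ETS1 siRNA replicate 1.

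The targeted gene fell most. ETS1 was at 288 and 248 CPM in siRNA control and 17.4 and 13.2 CPM in ETS1 siRNA, and its log2 fold change was -4.13 (adjusted p 0.00017, SE 0.19). After ETS1, HMGA2, an architectural chromatin protein that is abundant in the embryo and in mesenchymal carcinoma cells, fell by the largest factor. It was at 543 and 360 CPM in siRNA control and 69.6 and 78.2 CPM in ETS1 siRNA, with a log2 fold change of -2.61 (adjusted p 0.0032, SE 0.20). NRAS, a GTPase that relays growth factor signals to the RAF kinases, was at 228 and 204 CPM in siRNA control and 56.4 and 52.6 CPM in ETS1 siRNA and changed by -1.99 (adjusted p 0.0027, SE 0.14). For both genes the ETS1 siRNA libraries lay far below either control library, and without siRNA control replicate 1 the log2 fold changes were -2.28 for HMGA2 and -1.91 for NRAS. The other large falls came from genes of varied function. GXYLT1, a xylosyltransferase that modifies Notch receptors, fell from 44.1 and 28.9 to 10.3 and 9.41 CPM. SLC17A5, the lysosomal sialic acid exporter sialin, fell from 13.4 and 10.9 to 3.03 and 3.84 CPM. PLEKHA1, an adaptor that binds a phosphoinositide product of PI3K, fell from 72.8 and 59.1 to 19.4 and 18.8 CPM. NCR3LG1, the ligand of the natural killer cell receptor NKp30 known as B7-H6, fell from 27.1 and 19.7 to 10.1 and 4.43 CPM. FAM217B, PM20D2 and KPNA5, the last of them an importin of nuclear transport, had log2 fold changes of -1.65, -1.61 and -1.55. The 12 largest falls also include NLRP3 (-2.03) and IL24 (-1.91), which are described with the inflammatory genes. Of these 12 genes, 10 were called with each library left out in turn. NCR3LG1 and KPNA5 lost their call without siRNA control replicate 1.

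The 12 largest rises were smaller in size than the falls. HR, a corepressor of nuclear receptors that is needed for hair follicle cycling, was at 7.81 and 9.42 CPM in siRNA control and 27 and 23.9 CPM in ETS1 siRNA, with a log2 fold change of 1.56 (adjusted p 0.011, SE 0.17). BMF, a pro-apoptotic protein of the BH3-only type, was at 4.43 and 2.87 CPM in siRNA control and 8.79 and 11.6 CPM in ETS1 siRNA and changed by 1.47 (adjusted p 0.038, SE 0.25). TMEM189, which encodes a desaturase of plasmalogen synthesis, rose from 25.3 and 34.5 to 72.2 and 92.8 CPM, and TMEM97, the sigma-2 receptor, rose from 10.9 and 11.9 to 24 and 26.6 CPM. The other rises were RPS27L (1.30), SEPT5 (1.29), ZCCHC24 (1.26), KRT13 (1.22), NDUFA4L2 (1.21), ALDH3B1 (1.20), FBXL12 (1.19) and RRAD (1.12). They include a p53 target related to a ribosomal protein (RPS27L), a septin, a keratin of non-cornified mucosa, an aldehyde dehydrogenase and a RAS-related GTPase. Of the 12, 8 were called with each library left out in turn, and SEPT5, KRT13, NDUFA4L2 and ALDH3B1 were not called without siRNA control replicate 1. NDUFA4L2 was not called without ETS1 siRNA replicate 2 either. TMEM189 shares exons with the read-through gene TMEM189-UBE2V1. Counts of SEPT5, NLRP3 and IL24 are uncertain, because exons of another annotated gene cover at least 10% of theirs, and this applies to KRT13 and TMEM97 to a smaller extent. Such overlaps also make counts uncertain for some genes described below. These are EGLN1 (55.8%), ITGB3 (33.2%), DUSP6 (28.6%), TGFB2, ITGB6, CDK2 and CCND2, besides those marked in their paragraphs.

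**Figure D1:**
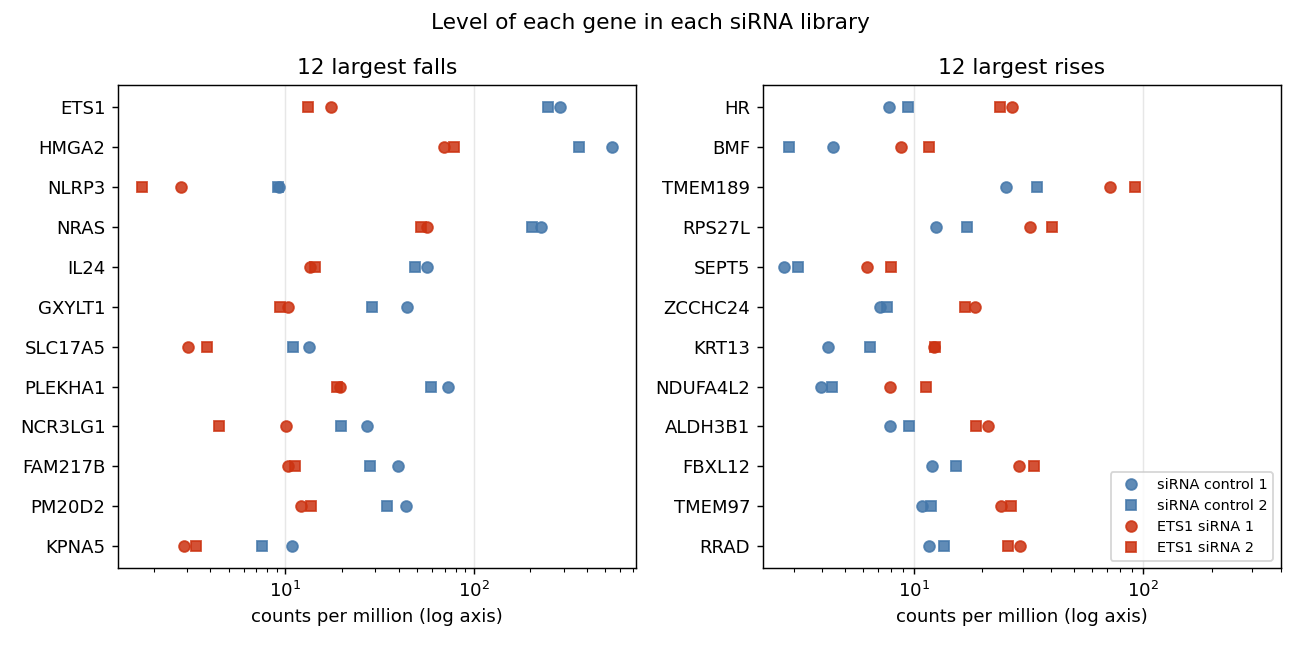
Level of each of the 12 largest falls and 12 largest rises in CPM on a log axis, with 1 point for each of the 4 siRNA libraries (circles for replicate 1, squares for replicate 2, blue for siRNA control, red for ETS1 siRNA). Every gene shows both ETS1 siRNA libraries on the same side of both control libraries, as the rule for naming these genes required, and ETS1, HMGA2 and NRAS show the widest separations among genes above 50 CPM in siRNA control.

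The sites below are shown because HMGA2, NRAS and several other large falls share a short word, a heptamer, in their 3′ UTR. The heptamer ACCTCAA was chosen with results of these libraries known, so its counts are a description without a test. Each line gives 30 bases of the transcript strand with the heptamer in capitals, read from GRCh37. The HMGA2 copies lie at chr12:66357518-66357547, chr12:66358169-66358198 and chr12:66358681-66358710 (plus strand), the NRAS copies at chr1:115249593-115249622 and chr1:115248104-115248133 (minus strand), the SLC17A5 copies at chr6:74304729-74304758 and chr6:74304362-74304391 (minus strand) and the NCR3LG1 copies at chr11:17394929-17394958 and chr11:17395486-17395515 (plus strand). All are in the annotated 3′ UTR of the gene. The last line is the mature let-7a microRNA from RefSeq, with its seed in capitals, because HMGA2 and NRAS are known let-7 targets and the heptamer overlaps the let-7 seed site.
HMGA2, first copy: acactgtgtacACCTCAAataccaccccaa
HMGA2, second copy: gaataccacttACCTCAAattaagcatatg
HMGA2, last copy: tccaagtctgtACCTCAAatgaattcttta
NRAS, first copy: gtgattttcaaACCTCAAatatagtatatt
NRAS, last copy: aattctagtttACCTCAAaatccttctctt
SLC17A5, first copy: tttatcatgtaACCTCAAagtgccttctgt
SLC17A5, last copy: ctgacacttagACCTCAAactttagcatct
NCR3LG1, first copy: aagaagaagccACCTCAAccctgtccagta
NCR3LG1, last copy: agtctggatccACCTCAAggatcccacttt
let-7a-5p: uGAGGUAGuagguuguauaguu

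The heptamer was common among the genes that fell. An annotated 3′ UTR was at hand for 12849 of the genes tested and for 326 of those called lower, and 144 of the latter (44.2%) held ACCTCAA at least once. Among the genes called higher the share was 10.8% (18 of 166), and among all 12849 genes it was 12.2%. Of the 12 largest falls 7 held it, and of the 12 largest rises 3 did (25%). Among named genes called higher, BMF, RPS27L, TMEM189, LOX, KLK10 and CDK6 hold 1 copy each. The share of genes called lower rose with the number of copies, from 1.61% of 11276 genes with no copy to 8.15% of 1337 genes with 1 copy, 13.5% of 200 genes with 2 copies and 22.2% of 36 genes with 3 or more. The corresponding median log2 fold changes were 0.019, -0.14, -0.19 and -0.36. Long 3′ UTRs hold more words of any kind, so the shares were also set out by length. Among 3′ UTRs of up to 1000 bases, 8.51% of carriers and 0.756% of the other genes were called lower, and among those over 4000 bases 8.66% and 3.93%. Genes without the heptamer thus were also called lower more often as their 3′ UTR was longer, whereas the share among carriers stayed between 8.51% and 9.84% in the 4 length classes. The base after the heptamer was looked at once the printed sites had been seen. Of 581 genes with an A there, as at all copies in HMGA2, NRAS and SLC17A5, 14.3% were called lower, against 10% of 260 genes with a T, 6.18% of 615 genes with a G and 5.8% of 276 genes with a C.

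The let-7 seed site, CTACCTC, was counted in the same way. It was held by 17.8% of the genes called lower and 11.1% of all genes, and 4.08% of the genes with at least 1 copy were called lower against 2.35% of those without. The median 3′ UTR was 3081 bases with the site and 1192 bases without it, and these shares were not set out by length. CTACCTC ends in the letters ACCTC with which the heptamer begins, so that copies of the words can overlap. Of 1024 genes that held CTACCTC and not ACCTCAA, 2.54% were called lower, against 9.54% of 1174 genes with ACCTCAA alone, 8.02% of 399 genes with both and 1.52% of 10252 genes with neither. The median 3′ UTR lengths of these groups, in the same order, were 2506, 3106, 4742 and 1047 bases. In none of the printed windows is there a copy of CTACCTC. Elsewhere in their 3′ UTRs, HMGA2 holds 4 copies and NRAS holds 1, while SLC17A5 and NCR3LG1 hold none. A further heptamer chosen in the same way, AGCCTTA, was held by 26.5% of the genes called higher and 11.2% of all genes. The share of genes called higher was 1.07% without it and 2.81%, 4.4% and 6.67% with 1, 2 and 3 or more copies. Of the genes with at least 1 copy of AGCCTTA, 3.07% were called higher and 3% lower. Their median 3′ UTR was 3236 bases, against 1169 bases in genes without it, and these shares were not set out by length either. The sequences of the pooled siRNAs were not compared with these words, because they are not given in the sources used here, and the part of either word in the changes was not tested.

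**Figure D2:**
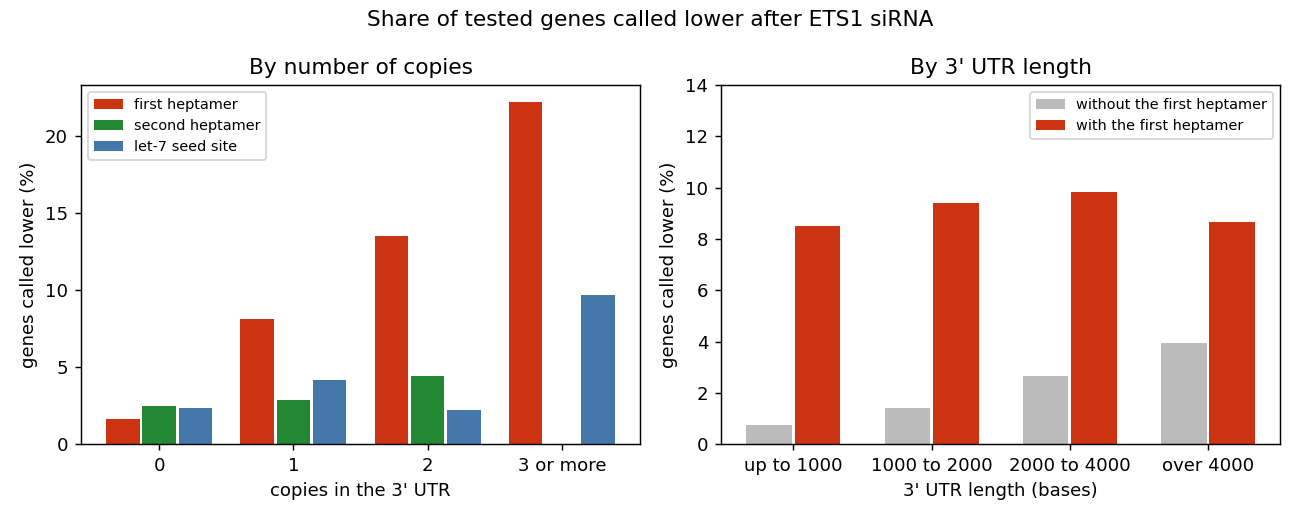
Percent of tested genes called lower after ETS1 siRNA, by the number of copies in the annotated 3′ UTR of the heptamer ACCTCAA (first heptamer), of AGCCTTA (second heptamer) and of the let-7 seed site CTACCTC, and, on the right, with and without ACCTCAA in 4 classes of 3′ UTR length in bases. The bars for ACCTCAA climb from 1.61% to 22.2%, and within each length class the carriers stand above the other genes.

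Gene families and pathways are described by how many of their tested members were called, next to the 1.13% of all genes called higher and the 2.27% called lower. The 46 lists held 1135 tested genes, of which 34 were called higher (3%) and 54 lower (4.76%). Of these 54 genes, 13 held ACCTCAA. The lists are textbook families, but they were written with earlier results of these data known. Their shares are thus a description, and no list was itself tested.

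The RAS, ERK and growth factor lists held 10 genes called lower and 4 called higher among 120 tested, or 8.33% and 3.33%. Among the 26 RAS family GTPases tested, 3 fell and 3 rose. RIT1, a RAS-like GTPase that activates the ERK cascade, was at 62 and 55.1 CPM in siRNA control and 27.1 and 27.3 CPM in ETS1 siRNA and changed by -1.11 (adjusted p 0.011, SE 0.12). RASD1 fell from 5.04 and 4.05 to 2.04 and 2.22 CPM, and its relative RASD2 rose from 3.17 and 4.74 to 7.97 and 7.34 CPM. RAP2B, of the RAP branch, rose from 48.8 and 61.3 to 101 and 95.9 CPM, and RRAD, a GTPase that inhibits calcium channels, rose from 11.7 and 13.5 to 29.2 and 25.8 CPM. Of the 21 core genes of the cascade from adaptor to ERK, PTPN11 was the called gene. PTPN11 encodes the phosphatase SHP2, which couples receptor tyrosine kinases to RAS, and it was at 326 and 289 CPM in siRNA control and 133 and 111 CPM in ETS1 siRNA and changed by -1.33 (adjusted p 0.011, SE 0.15).

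Upstream of RAS, 2 ligands and an adaptor were called lower. HBEGF and TGFA, ligands of the EGF receptor, were the called genes among 12 EGF receptors and ligands. HBEGF was at 102 and 57.8 CPM in siRNA control and 28.6 and 42.4 CPM in ETS1 siRNA and changed by -1.17 (adjusted p 0.092, SE 0.27), and TGFA was at 154 and 131 CPM in siRNA control and 91.8 and 86.9 CPM in ETS1 siRNA and changed by -0.68 (adjusted p 0.068, SE 0.14). The control libraries were wide apart for HBEGF, and DESeq2 did not call it (adjusted p 0.15). In FGF signalling, FRS2, the docking protein of the FGF receptors, fell from 62.4 and 54.4 to 30.7 and 26.5 CPM and changed by -1.03 (adjusted p 0.016, SE 0.14), while FGFBP1, a carrier that releases FGFs from the matrix, changed by 0.61. PIK3R1, a regulatory subunit of PI3K, changed by -0.61 and was the called gene of 30 in the PI3K-AKT-mTOR list. Of 13 genes that ERK signalling induces to restrain itself, 2 were called, 6 were below 0.05 in unadjusted p, all of them lower, and the list median was -0.30. DUSP6, a phosphatase specific for ERK, was at 87.1 and 80.7 CPM in siRNA control and 55.6 and 54.4 CPM in ETS1 siRNA, and DUSP5, its nuclear counterpart, at 58.5 and 56.7 CPM in siRNA control and 39.6 and 38.6 CPM in ETS1 siRNA. Their log2 fold changes were -0.61 and -0.56. DUSP6 carries 2 copies of ACCTCAA, and FRS2 carries 1. Without siRNA control replicate 1, 5 of the 14 genes were called, namely NRAS, RIT1, RRAD, PTPN11 and FRS2.

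**Figure D3:**
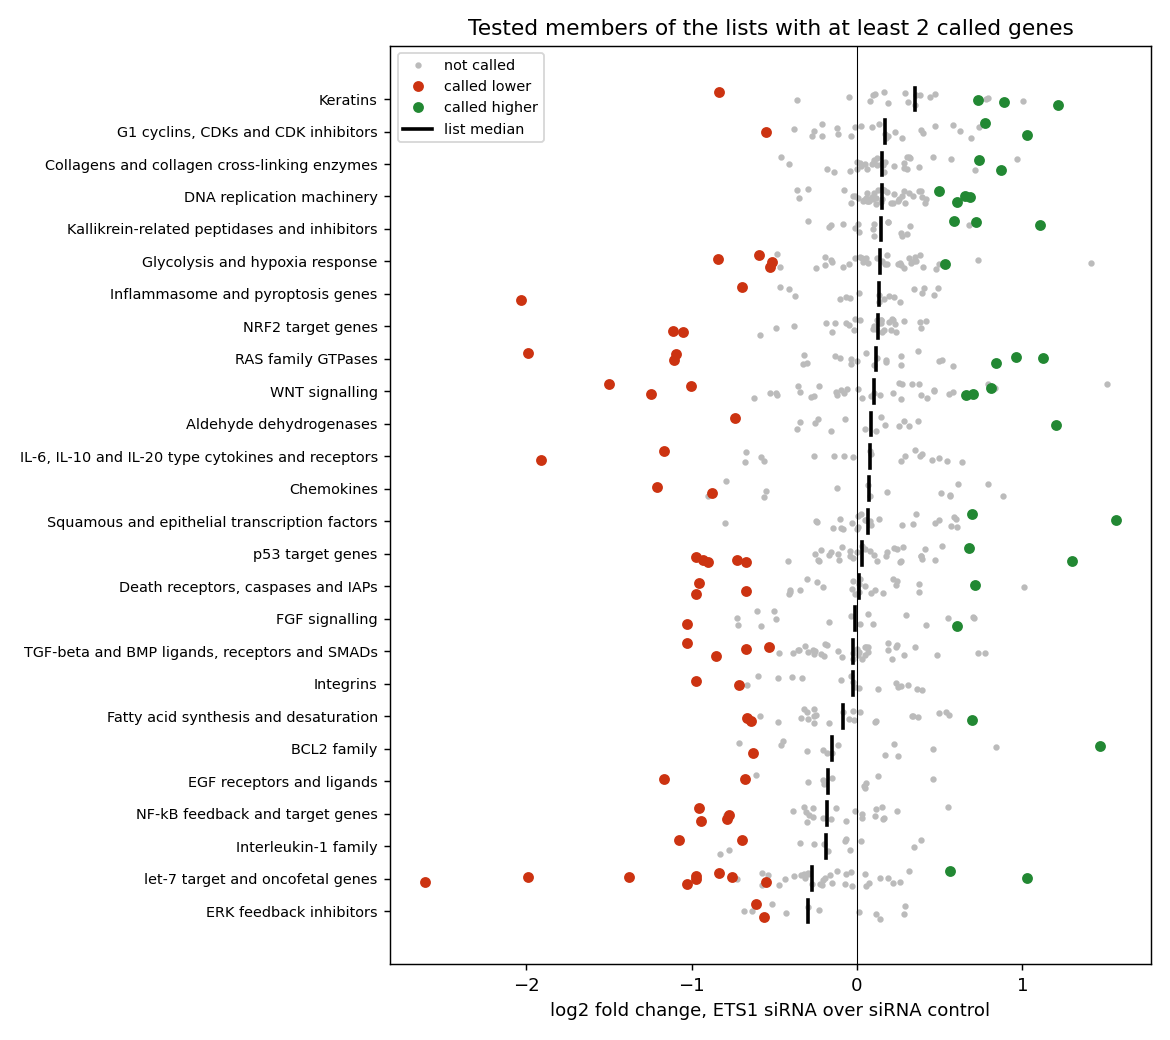
Log2 fold change of every tested member of the 26 lists with at least 2 called genes, with called genes in red (lower) or green (higher), other genes in grey and the list median as a black bar. Lists are ordered by their median, from -0.30 for the ERK feedback inhibitors to 0.35 for the keratins, and most members of every list lie within 1 log2 unit of 0.

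The inflammatory genes called by edgeR were all lower, while the lists as a whole were split. Of 95 tested members of 5 lists (the IL-1 family, IL-6, IL-10 and IL-20 type cytokines and receptors, chemokines, NF-kB target genes and the inflammasome), 11 were called lower, which is 11.6%, and none was called higher by edgeR. At an unadjusted p under 0.05 each of these lists held 1 to 3 higher genes, and DESeq2 called 13 lower and 2 higher. The medians were above 0 for the inflammasome (0.13, 12 of 20 genes above 0), for the IL-6, IL-10 and IL-20 type list (0.077, 11 of 21) and for the chemokines (0.073, 9 of 16), and below 0 for the IL-1 family (-0.19) and the NF-kB list (-0.18). IL24, a cytokine of the IL-20 type, was at 56.4 and 48.6 CPM in siRNA control and 13.6 and 14.4 CPM in ETS1 siRNA and changed by -1.91 (adjusted p 0.0027, SE 0.14). IL6 fell from 27.4 and 22.2 to 10.8 and 11.3 CPM, with a log2 fold change of -1.17 (adjusted p 0.021, SE 0.16). For both cytokines the lower control library lay well above the higher ETS1 siRNA library. IL1A, the alarmin made by keratinocytes, was at 412 and 348 CPM in siRNA control and 177 and 184 CPM in ETS1 siRNA and changed by -1.07 (adjusted p 0.014, SE 0.14). IL1B was at 198 and 217 CPM in siRNA control and 139 and 118 CPM in ETS1 siRNA and changed by -0.70 (adjusted p 0.063, SE 0.14). In all, 11 of 14 tested members of the IL-1 family had a fold change below 0, and the others were not called. NLRP3, the sensor of the inflammasome that matures IL-1β, fell from 9.22 and 9.11 to 2.79 and 1.72 CPM, with a log2 fold change of -2.03 (adjusted p 0.014, SE 0.25). Its counts were low, at 35 to 183 reads per library.

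Of 16 chemokines, IL8 and CCL20 were called, which attract neutrophils and CCR6-bearing lymphocytes respectively. IL8 (CXCL8) was at 105 and 139 CPM in siRNA control and 63.2 and 42.1 CPM in ETS1 siRNA and changed by -1.21 (adjusted p 0.042, SE 0.22). CCL20 was at 27.6 and 28.6 CPM in siRNA control and 13.9 and 16.7 CPM in ETS1 siRNA and changed by -0.88 (adjusted p 0.038, SE 0.15). Among 26 feedback and target genes of NF-kB, TRAF1, BIRC3, IRAK3 and CSF2 were called. TRAF1 fell from 25.1 and 26.3 to 14.3 and 12.4 CPM, BIRC3, an inhibitor of apoptosis and of RIP kinase signalling, from 73.1 and 81.2 to 47.8 and 32 CPM, and CSF2, which encodes GM-CSF, from 27.2 and 19.8 to 13.2 and 14.4 CPM. The log2 fold changes of TRAF1, BIRC3, IRAK3 and CSF2 were -0.95, -0.95, -0.79 and -0.77. The median of this list ranged from -0.44 to 0.054 with each library left out in turn. IL6, TRAF1 and IRAK3 hold 1 copy of ACCTCAA each, and the other genes hold none. Without siRNA control replicate 1, NLRP3, IL1A, IL24 and IL8 were called, and DESeq2 called all 11 but NLRP3, for which it gave no adjusted p. The 28 AP-1 and immediate early genes had no call in edgeR, 3 of them were higher and 2 lower at an unadjusted p under 0.05, and DESeq2 called 1.

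**Figure D4:**
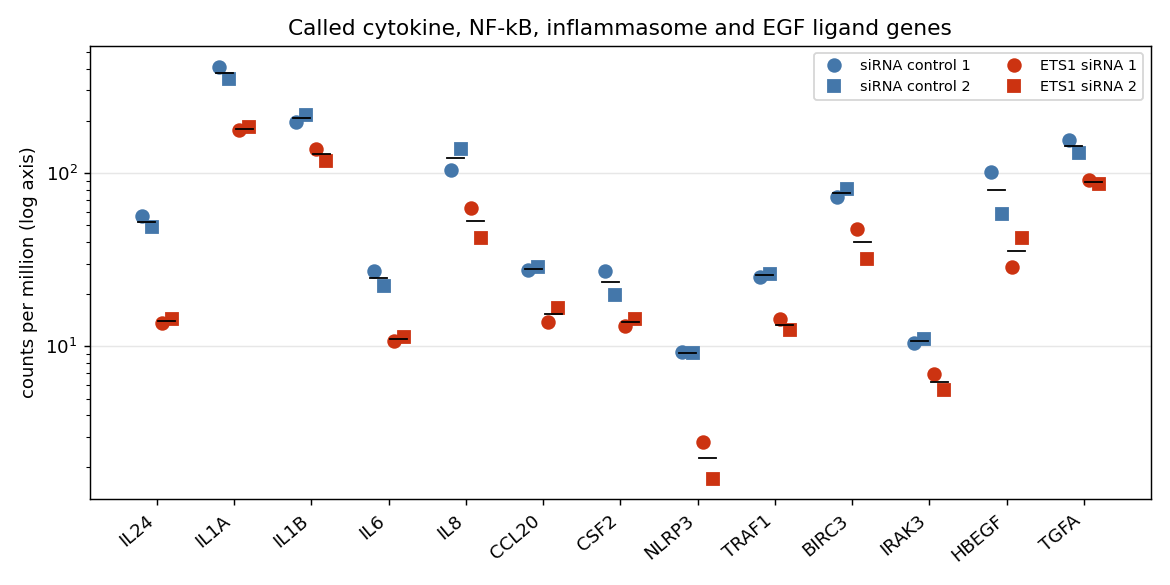
Level in CPM (log axis) of the called cytokine, chemokine, NF-kB, inflammasome and EGF ligand genes in each siRNA library, with circles for replicate 1, squares for replicate 2 and a bar at each group mean (n = 2). Both ETS1 siRNA libraries lie below both control libraries for all 13 genes, as for every gene called lower. The gap is widest for IL24 and NLRP3 and narrowest for HBEGF.

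Genes of cell death changed on both sides. Among 76 tested genes of the BCL2 family, the death receptor pathway and the p53 response, 7 were called lower (9.21%) and 4 higher (5.26%). BMF rose, as described, while MCL1, which holds BH3-only proteins in check, was at 594 and 534 CPM in siRNA control and 373 and 357 CPM in ETS1 siRNA and changed by -0.63 (adjusted p 0.055, SE 0.12). FAS, the death receptor for FAS ligand, was at 28.5 and 26.1 CPM in siRNA control and 15 and 12.9 CPM in ETS1 siRNA and changed by -0.97 (adjusted p 0.03, SE 0.15), and its counts are uncertain because antisense genes overlap its exons. TNFRSF10A, a receptor for TRAIL, changed by -0.67.

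The 39 tested p53 targets were split, with a median of 0.032, 2 calls higher and 5 lower. MDM2, the ubiquitin ligase that p53 induces against itself, was at 26.7 and 22.1 CPM in siRNA control and 12.7 and 13.4 CPM in ETS1 siRNA and changed by -0.90 (adjusted p 0.039, SE 0.16). CCNG1, also a feedback gene, changed by -0.93 and ZMAT3, an RNA-binding tumour suppressor, by -0.72. DDB2, of nucleotide excision repair, rose from 30.4 and 33.6 to 53.8 and 48.3 CPM, and RPS27L rose from 12.6 and 17.1 to 32.3 and 40.4 CPM. RPS27L has a close paralogue, so its reads may be shared. MDM2 and ZMAT3 hold 2 copies of ACCTCAA each, and RPS27L, which rose, holds 1. Of the 11 called genes, RPS27L and BMF were called without siRNA control replicate 1.

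Developmental signalling pathways held 143 tested genes, with 8 called lower (5.59%) and 4 higher (2.8%). The WNT list showed calls in both directions. WNT7A and WNT3A, ligands, and LGR4, a receptor of the R-spondins that amplifies WNT signals, fell. LGR4 was at 38.8 and 35.8 CPM in siRNA control and 17.6 and 13.9 CPM in ETS1 siRNA and changed by -1.24 (adjusted p 0.014, SE 0.16). WNT7A was at 55.9 and 40.2 CPM in siRNA control and 24.3 and 23.6 CPM in ETS1 siRNA and changed by -1.01 (adjusted p 0.035, SE 0.17). WNT3A was low throughout, at 4.48 and 6.67 CPM in siRNA control and 1.57 and 2.32 CPM in ETS1 siRNA. CTNNB1, which encodes β-catenin, the transducer of the pathway, rose from 173 and 196 to 312 and 337 CPM and changed by 0.81 (adjusted p 0.031, SE 0.13). FZD2, a receptor, and TCF7, a nuclear partner of β-catenin, changed by 0.66 and 0.70. CTNNB1 was not called without siRNA control replicate 1, where its log2 fold change was 0.72.

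In the Notch list of 33 genes, LFNG, a glycosyltransferase that tunes the response of Notch receptors to their ligands, rose from 17.4 and 17.6 to 30.6 and 33.4 CPM, with a log2 fold change of 0.87 (adjusted p 0.03, SE 0.14). It was the called gene of the list, and 3 genes were higher and 4 lower at an unadjusted p under 0.05. Among 41 TGF-β and BMP ligands, receptors and SMAD genes, 4 were called and all fell. INHBA, the subunit of activin A, was at 410 and 350 CPM in siRNA control and 257 and 220 CPM in ETS1 siRNA and changed by -0.67 (adjusted p 0.073, SE 0.14). TGFB2 changed by -0.53, ACVR1C, an activin type I receptor, by -1.03, and SKIL, a SMAD corepressor, by -0.85. ACVR1C and SKIL carry ACCTCAA. CRIM1 was the called gene among 28 YAP-TEAD factors and targets and changed by -0.74, and 7 genes of that list were lower and 3 higher at an unadjusted p under 0.05. Of the 12 called genes of these 4 lists, WNT3A and LGR4 were called without siRNA control replicate 1.

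Among epithelial families, calls were mostly higher for keratins, kallikreins and squamous transcription factors and lower for integrins. Of 132 tested genes for keratins, kallikreins, squamous transcription factors, the cornified envelope, S100 proteins, laminins and integrins, 8 were called higher (6.06%) and 3 lower (2.27%). Of 21 keratins, 18 had a fold change above 0 and 9 were higher at an unadjusted p under 0.05, with a median of 0.35. KRT13, a keratin of mucosal suprabasal cells, was at 4.23 and 6.49 CPM in siRNA control and 12.3 and 12.4 CPM in ETS1 siRNA and changed by 1.22 (adjusted p 0.043, SE 0.22). KRT19 was at 107 and 151 CPM in siRNA control and 211 and 216 CPM in ETS1 siRNA and changed by 0.73 (adjusted p 0.096, SE 0.18). KRT9, the palm and sole keratin, was low, at 2.87 and 3.31 CPM in siRNA control and 5.7 and 5.71 CPM in ETS1 siRNA. KRT80 went the other way, from 100 and 69.5 to 41.8 and 53.5 CPM, with a log2 fold change of -0.83 (adjusted p 0.093, SE 0.19). The summed level of the keratinocyte identity genes, given above, was likewise higher in both ETS1 siRNA libraries, and its part in these values was not tested. The keratin median stayed above 0 with each library left out, between 0.17 and 0.65. The median 3′ UTR of the keratins was 357 bases. Keratin genes have close paralogues and pseudogenes, and the handling of reads with several matches is not stated, so single levels are uncertain.

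Of 20 kallikreins and their inhibitors, KLK10, KLK8 and KLK5 were called, all higher, and these are secreted serine proteases that are neighbours in a cluster on chromosome 19. KLK10 was at 15.6 and 16.7 CPM in siRNA control and 35.4 and 34.1 CPM in ETS1 siRNA and changed by 1.11 (adjusted p 0.014, SE 0.14). KLK8 and KLK5 changed by 0.72 and 0.58, and both overlap other annotated exons. Of 28 squamous and epithelial transcription factors, HR and MAF were called, both higher, and 7 genes of the list had an unadjusted p under 0.05, all higher. MAF, a factor of terminal keratinocyte differentiation, rose from 10.5 and 12.5 to 19.8 and 17.4 CPM. In contrast, the 19 tested cornified envelope genes had no call in edgeR or DESeq2, with 3 higher and 1 lower at an unadjusted p under 0.05. The 12 S100 genes also had no call by either tool, with 2 higher, and the 19 laminin and hemidesmosome genes had none in edgeR and 1 in DESeq2, with 3 higher and 1 lower at that p. Among 19 integrins, ITGB6, the epithelial integrin that activates TGF-β, was at 555 and 405 CPM in siRNA control and 274 and 312 CPM in ETS1 siRNA and changed by -0.71 (adjusted p 0.093, SE 0.17), and ITGB3 changed by -0.97. Of the 11 called genes of these families, KLK10 and HR were called without siRNA control replicate 1.

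Matrix genes and their proteases held 78 tested members, with 2 called in each direction (2.56%). COL1A1, the α1 chain of type I collagen, was at 143 and 126 CPM in siRNA control and 210 and 238 CPM in ETS1 siRNA and changed by 0.73 (adjusted p 0.05, SE 0.14). LOX, which cross-links collagen, was at 66.1 and 58.1 CPM in siRNA control and 105 and 122 CPM in ETS1 siRNA and changed by 0.87 (adjusted p 0.033, SE 0.14). In all, 28 of 34 collagen and cross-linking genes had a fold change above 0, and the median was 0.15. Against these, PLAT, the tissue plasminogen activator, was at 30.7 and 37 CPM in siRNA control and 20.7 and 15 CPM in ETS1 siRNA and changed by -0.93 (adjusted p 0.064, SE 0.19). ADAM8, a sheddase, was at 75.2 and 80.1 CPM in siRNA control and 48.4 and 44.1 CPM in ETS1 siRNA and changed by -0.75 (adjusted p 0.031, SE 0.12). It was the called gene of 33 MMP, ADAM and ADAMTS proteases, of which 1 was higher and 4 were lower at an unadjusted p under 0.05 and 2 were called by DESeq2. PLAT and LOX kept their calls with each library left out in turn.

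Calls among cell cycle genes were mostly higher. Of 73 tested genes for G1 control and DNA replication, 6 were called higher (8.22%) and 1 lower (1.37%). CDK6, a partner of the D-type cyclins, was at 82.7 and 86.9 CPM in siRNA control and 181 and 165 CPM in ETS1 siRNA and changed by 1.03 (adjusted p 0.014, SE 0.13). CDK2, which acts with cyclin E at the start of S phase, was at 40.1 and 43 CPM in siRNA control and 69.2 and 72.9 CPM in ETS1 siRNA and changed by 0.77 (adjusted p 0.027, SE 0.12). CCND2, a D-type cyclin, was lower, at 62 and 70.3 CPM in siRNA control and 48.8 and 41.5 CPM in ETS1 siRNA, a change of -0.55 (adjusted p 0.097, SE 0.13). For CDK6 the groups lay 2.04-fold apart, and the call held with each library left out.

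Among 46 genes of the replication machinery, 39 had a fold change above 0, 12 were higher and 1 lower at an unadjusted p under 0.05, and the median was 0.15. The 4 called genes were CDT1, the licensing factor that loads the MCM helicase, GINS2, a subunit of the active helicase, FEN1, the flap nuclease, and LIG1, the ligase that joins Okazaki fragments. CDT1 was at 39.9 and 44.2 CPM in siRNA control and 66.5 and 65.4 CPM in ETS1 siRNA. GINS2 was at 21.3 and 26.2 CPM in siRNA control and 36.9 and 39.3 CPM in ETS1 siRNA. Log2 fold changes were 0.65 for CDT1, 0.68 for GINS2, 0.60 for FEN1 and 0.50 for LIG1. They were small, and without siRNA control replicate 1 edgeR called no replication gene. The median 3′ UTR of the replication genes was 872 bases, and all 5302 tested genes with a 3′ UTR of up to 1000 bases had a median fold change of 0.105 on the log2 scale. The part of 3′ UTR length in these values was not tested.

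Metabolic and stress pathways stood near the background, with 5 genes called higher (1.47%) and 9 lower (2.65%) among 339 tested. SLC7A11, the cystine importer, was at 88.1 and 50 CPM in siRNA control and 27.4 and 36.6 CPM in ETS1 siRNA and changed by -1.11 (adjusted p 0.09, SE 0.25). HMOX1, heme oxygenase 1, was at 9.72 and 9.92 CPM in siRNA control and 5.06 and 4.43 CPM in ETS1 siRNA and changed by -1.05 (adjusted p 0.038, SE 0.18). Both are targets of NRF2, and edgeR called no other of the 34 tested targets of that factor, while DESeq2 called 3 in all. In the glycolysis and hypoxia list of 40 genes, HK2, PFKM, EGLN1 and VEGFA fell and NDRG1 rose. HK2, the inducible hexokinase, was at 96.4 and 99.7 CPM in siRNA control and 65 and 44.5 CPM in ETS1 siRNA and changed by -0.84 (adjusted p 0.074, SE 0.18). VEGFA, the angiogenic growth factor, was at 249 and 229 CPM in siRNA control and 171 and 164 CPM in ETS1 siRNA and changed by -0.51 (adjusted p 0.1, SE 0.13). The list as a whole did not follow these genes, since 12 members were higher and 5 lower at an unadjusted p under 0.05 and the median was 0.14.

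Enzymes of acetyl-CoA and lipid supply were split. ACLY, ATP citrate lyase, was at 277 and 245 CPM in siRNA control and 173 and 156 CPM in ETS1 siRNA, ACSL3 changed by -0.64 and the desaturase SCD5 by 0.69. None of 31 cholesterol genes was called by edgeR or DESeq2, with 5 higher and 2 lower at an unadjusted p under 0.05. Among the aldehyde dehydrogenases, 2 were called in opposite directions. ALDH3B1, which oxidises lipid aldehydes, rose from 7.86 and 9.54 to 21.2 and 18.8 CPM, and ALDH1A3, which makes retinoic acid, fell from 280 and 246 to 149 and 165 CPM, with an antisense gene across its exons. HSPB1, a small heat shock protein, changed by 0.90, and MAP1LC3A, of the autophagosome, by 0.65. Without siRNA control replicate 1 none of these 14 genes was called by edgeR.

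Subunits of the respiratory chain were mostly above 0 by a small amount. None of 75 was called by edgeR and 4 were called by DESeq2, but 66 had a fold change above 0, the median was 0.21, and 14 were higher and 1 lower at an unadjusted p under 0.05. The median over all genes tested was 0.0018. With each library left out in turn, the median of this list ran from 0.13 to 0.33. The genes of the list have short 3′ UTRs, with a median of 192.5 bases for the 74 with an annotation, set beside the median of 0.105 for all genes of up to 1000 bases. It was -0.020 for 2899 genes of 1000 to 2000 bases, -0.091 for 2895 genes of 2000 to 4000 bases and -0.14 for 1753 longer ones. The part of 3′ UTR length in the shift of the respiratory chain was not tested.

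The list of let-7 targets and oncofetal genes had the most calls, 11 of 43 tested, with 9 lower (20.9%) and 2 higher (4.65%). Its median was -0.27 and stayed between -0.29 and -0.21 with each library left out. The genes of the list have long 3′ UTRs, with a median of 3096 bases for the 42 with an annotation. All tested genes of 2000 to 4000 bases had a median fold change of -0.091 on the log2 scale. In that class 9.84% of the genes with ACCTCAA and 2.64% of those without were called lower. The part of 3′ UTR length in the values of this list was not tested. HMGA2 and NRAS led it, followed by FIGN, a microtubule-severing enzyme, at 19.8 and 16.4 CPM in siRNA control and 7.39 and 6.6 CPM in ETS1 siRNA, a change of -1.38 (adjusted p 0.014, SE 0.17). THBS1, the matrix glycoprotein thrombospondin 1, was at 5915 and 5096 CPM in siRNA control and 3216 and 2960 CPM in ETS1 siRNA and changed by -0.83 (adjusted p 0.027, SE 0.13). DICER1, which cuts microRNA precursors, was at 202 and 172 CPM in siRNA control and 120 and 101 CPM in ETS1 siRNA and changed by -0.76 (adjusted p 0.06, SE 0.15), and it was the called gene of 20 in the list of the small-RNA machinery. The ubiquitin-conjugating enzyme CDC34 changed by 0.56. ACCTCAA was found in HMGA2 and FIGN 3 times each, in NRAS and ACVR1C 2 times each and in none of the other genes called lower whose 3′ UTR was annotated. In all, 16 of the list's genes carried it. Without siRNA control replicate 1, HMGA2, NRAS, FIGN and CDK6 were called.

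Promoters of the changed genes did not hold the ETS word more often. The full motif CCGGAAGT, searched on both strands from 250 bases before to 50 after the transcription start of RefSeq genes, was found in 5.79% of 121 promoters of genes called higher, 6.34% of 268 of genes called lower and 8.58% of all 10788. The shorter word CGGAAG, which the full motif contains, was found in 28.1%, 28% and 32.3%. A match is a description of these letters and not a bound site.

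Finally, the changes after siRNA were set beside those after the stable hairpin, which have their own controls. The test was the difference of the effects in a fit of all 8 libraries, and it was past the threshold for 34.8% of 17190 genes. After shRNA itself 60.6% of 16481 genes were called, so that a call there is common. The tables differ in preparation, and the kind of knockdown cannot be told apart from it. Of the 102 genes named by rule, the difference was called for 83. Of the 61 genes called lower after siRNA and tested after shRNA, 32 were also called lower and 18 were called higher, and of 40 called higher, 17 were called in each direction. ETS1 itself fell by 2.89 on the log2 scale after shRNA.

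A first set of genes fell in both knockdowns and further after shRNA. Among them were IL24 (log2 fold changes of -1.91 after siRNA and -4.11 after shRNA), IL1A (-1.07 and -2.99), IL1B (-0.70 and -3.46), VEGFA (-0.51 and -2.59), ALDH1A3 (-0.74 and -2.93), ADAM8 (-0.75 and -2.84), INHBA (-0.67 and -2.18), HBEGF (-1.17 and -2.46), DUSP6 (-0.61 and -1.63) and CCND2 (-0.55 and -3.11). The difference was called for each of the genes listed here. The other inflammatory genes called in both reversed, except IL6 and CSF2, and these were IL8 (-1.21 and 0.96), CCL20 (-0.88 and 0.69), BIRC3 (-0.95 and 1.93), TRAF1 (-0.95 and 0.44) and IRAK3 (-0.79 and 0.19), again with a called difference. IL6 (-1.17 and -0.74) and CSF2 (-0.77 and -1.49) were lower in both, and their differences were not past the threshold. NRAS stood at -1.99 and -0.02, a difference of -1.95 (adjusted p 1.4e-05). PTPN11 (-1.33 and -0.44) and HMGA2 (-2.61 and -1.94) fell in both, further after siRNA. RIT1, LGR4, SLC17A5 and PLEKHA1 fell after siRNA and were higher after shRNA, by 0.45, 0.54, 0.64 and 0.49.

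Replication genes showed the clearest contrast between the experiments. Whereas 39 of 46 had a fold change above 0 after siRNA, 42 were called lower after shRNA, where the median was -0.78, and the difference was called for 40. CDT1 was 0.65 and -1.40, and CDK2 was 0.77 and -0.77. KLK10 (1.11 and -1.12) and TCF7 (0.70 and -1.70) also rose after siRNA and fell after shRNA. In the list of amino acid stress and serine synthesis, 1 of 38 genes, SLC7A11, was called after siRNA and 31 were called lower after shRNA, and the difference was called for 27. Genes that rose in both included RRAD (1.12 and 3.31), KRT13 (1.22 and 2.34), LOX (0.87 and 1.29) and COL1A1 (0.73 and 0.96). The differences for LOX and COL1A1 were not past the threshold, with adjusted p of 0.2 and 0.51. Of the genes called lower after siRNA, the difference was called for 75.7% of those with ACCTCAA (109 of 144) and for 68.5% of those without it that could be tested (122 of 178). After shRNA, 46.5% of the former and 55.6% of the latter were called lower, and their median log2 fold changes were -0.16 and -0.28.

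**Figure D5:**
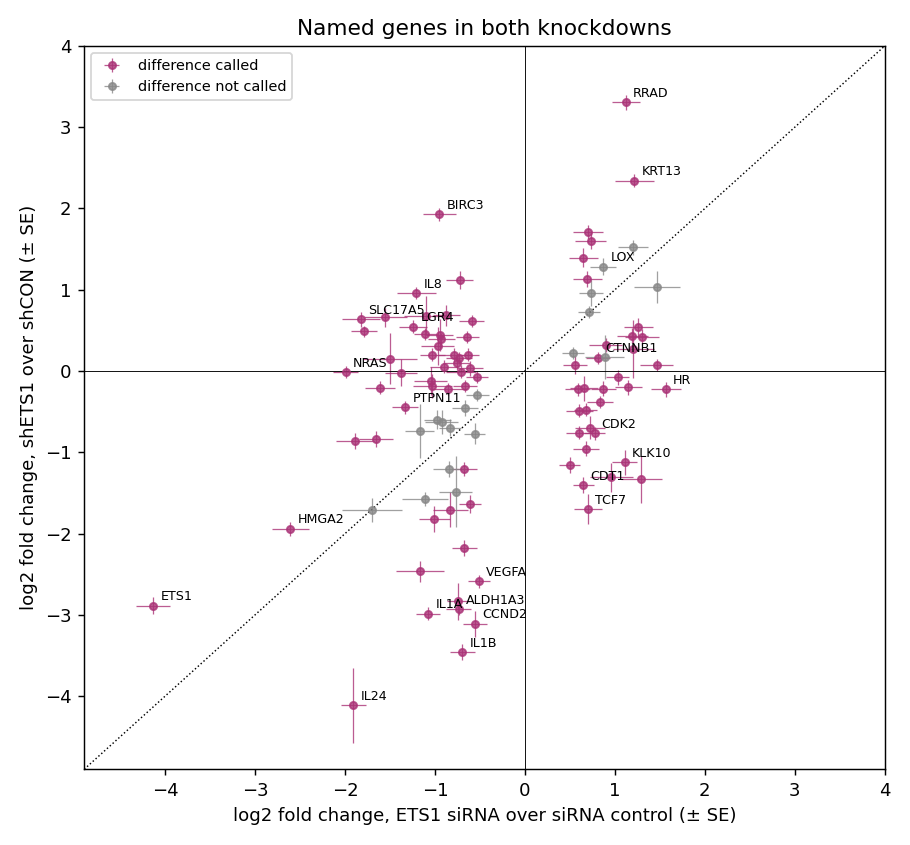
Log2 fold change after siRNA (horizontal axis) against that after shRNA (vertical axis) for the named genes tested in both, with bars of ± 1 SE and a dotted line of equal change. Purple marks genes whose difference was past the threshold, 83 of the 101 shown, and labelled genes include IL24 and IL1B far below the line and NRAS, SLC17A5 and BIRC3 above it on the left.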

How the data were processed

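RNA sequencing libraries (TruSeq, 50 base single-end reads) were made and mapped to GRCh37 by the authors with TopHat2 2.1.1 and Bowtie2 2.2.6, and reads were assigned to Ensembl genes with featureCounts 1.5.0, per the submitters' processing notes and the methods. The values deposited are counts of reads for each gene symbol, not normalized. Use of strand and of reads with several matches is not stated in the sources used here. In the present work the siRNA table was fitted alone in edgeR 4.0.16 (R 4.3.3), with its two-sided quasi-likelihood test (TMM scaling, filterByExpr, Benjamini-Hochberg over all genes tested, calls at an adjusted p under 0.1). The methods of the study used DESeq2 with that threshold, and DESeq2 1.42.0 was an alternative. CPM are relative to TMM-scaled library sizes over the tested genes. Standard errors came from the fold change and F. Total counts of 15954616 to 20469763 per library set the precision of low genes, and with 2 libraries in a group the spread between replicates limits it more. The difference between knockdowns was the interaction in a fit of all 8 libraries. The scripts were tested on simulated data.

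The gene lists, heptamers and named genes were chosen with earlier results of these data known. Named were ETS1, the 12 largest rises and falls among called genes that averaged 5 CPM or more and whose groups did not overlap, and called list members. Of the 56638 symbols, 33551 matched a current and 1898 an older symbol of the GENCODE v44 annotation lifted to GRCh37, 422 matched several genes and 20767 none. The 3′ UTR was that of the annotation, and overlap meant shared exons over at least 10% of a gene's exonic length. Alternatives were other scalings and filters, DESeq2, the replicate block, a stricter threshold, leaving out each library and, added after seeing the data, a crossed block and the removal of heptamer carriers.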

Additional observations from a re-analysis of the deposited data

Results flagged for a closer look

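Effects of siRNA and shRNA on the same gene were compared directly for the genes with the largest changes after siRNA. The difference between the effects was past the threshold for 10 of the 12 largest falls and for 10 of the 12 largest rises, against 34.8% of all genes tested for it. These 24 genes were chosen for the size of their change after siRNA, so the shares are not read against that of all genes. Among the falls, NLRP3 and NCR3LG1 were the exceptions, and NCR3LG1 changed by -1.70 after siRNA and -1.71 after shRNA. Among the rises the exceptions were BMF, at 1.47 and 1.03, and ALDH3B1, at 1.20 and 1.52.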

How the results depend on the processing

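The number of calls moved with the processing, while no named gene changed direction. In all, 502 genes were called (167 higher, 335 lower). DESeq2 gave 797 calls with 309 higher, no filter on low counts 1466 (627 higher, 839 lower), and protein-coding genes with at least 1 TPM 793 (294 higher). At least 10 counts in every library gave 268 higher. An adjusted p under 0.05 left 190 (51 higher, 139 lower). Without carriers of ACCTCAA or AGCCTTA, an alternative added after seeing the data, 288 were called, 175 of them lower. With each library left out in turn the calls ranged from 72 to 1478, the higher ones from 15 to 488 and the lower ones from 57 to 990. Whether replicate numbers pair the libraries is not stated. The deviations of same-numbered libraries from their group means correlated at -0.566, which cannot show how the cultures were paired. The replicate block left 97 calls (22 higher, 75 lower), and 31 of the 102 named genes kept their call. A crossed replicate block, chosen after seeing the data, gave 3238 calls (1426 higher, 1812 lower). DESeq2's size factors and library size only gave 517 and 522 calls. Of the named genes, 30 were called without siRNA control replicate 1, 65 without ETS1 siRNA replicate 2, 80 without siRNA control replicate 2, all 102 without ETS1 siRNA replicate 1, and 91 of 92 with an adjusted p in DESeq2. The calls for the difference between knockdowns numbered 5974 and stayed between 4264 and 6302 under the alternatives. The cause of these shifts was not tested beyond the fewer libraries or genes that some settings hold. With 2 libraries in each group, only 2 of the 502 called genes changed by less than 0.5 on the log2 scale.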
